A study of Mus musculus with 12 samples.

Results

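The Pur family of single-strand nucleic acid binding proteins comprises 3 genes in the mouse, Pura, Purb and Purg, and all 3 were found among the 55487 genes measured in brain tissue with and without telomerase. They were taken by name from the 2 deposited expression tables, and all 3 passed the filter on low values in both tissues (10 or more normalized counts on average across a tissue's 6 libraries). A normalized count is a read count divided by a size factor of its library. The family had been selected on the levels of its members in these very libraries. The difference between genotypes is therefore described for the 3 genes without a test, and tests are given only for other genes. RNA sequencing was done on total RNA from C57BL/6 mice, in 4 groups of 3 libraries. These were cerebral cortex and hippocampus of wild-type mice (mTert WT) and of mice labelled mTert KO (G1), called knockout below, in which Tert, the catalytic subunit of telomerase, is targeted. The names of the deposited data add Homo to this label, read here as homozygous. Nothing in the labels ties the 3 libraries to separate mice, so that p-values measure only the spread between these libraries, which may be technical. Whether the libraries of a group are independent was not tested. Ages and the knockout allele itself were not given in the sources used here.

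Pur proteins bind purine-rich single-stranded DNA and RNA, in particular repeats of GGN, through the Pur repeats for which the family is named. Pur-alpha, the product of Pura, and Pur-beta, the product of Purb, act in transcription and replication in the nucleus and travel with messenger RNA in the transport granules that kinesin moves along dendrites. Loss of 1 copy of the human PURA gene causes a neurodevelopmental disorder, and mice without Pura develop tremor and seizures after birth. Pur-gamma, the product of Purg, is the least studied of the family, and its gene lies head to head with Wrn, which encodes the Werner syndrome helicase.

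The members differ in size outside their coding sequence. Pura (ENSMUSG00000043991, chromosome 18, 36281097 to 36292535, plus strand, GRCm38) has 2 annotated exons with 5957 bases in all, of which 963 code for protein, all in 1 exon, and 4411 follow the coding sequence. Purb (ENSMUSG00000094483, chromosome 11, 6467599 to 6475917, minus strand) is a single exon of 8319 bases, of which 972 are coding and 7316 follow the coding sequence. Purg (ENSMUSG00000049184, chromosome 8, 33386325 to 33417467, plus strand) has 1975 exonic bases over 2 transcripts, 1 with its coding sequence in 1 exon and 1 with a second coding exon.

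The coding sequences were 84.1% identical between Pura and Purb over 886 aligned bases, 65.4% between Pura and Purg and 67.2% between Purb and Purg. No run of 50 bases was shared between the transcripts of any 2 members, and the longest shared run was 44 bases for Pura and Purb and 20 bases for either of them with Purg.

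The 250 bases before the RefSeq start of Purb, which lies upstream of the GENCODE start given above, are shown because Pur proteins bind GGN repeats and have been reported to act on promoters of their own family (RefSeq, GRCm38.p6, chr11:6476077-6476326, minus strand), with matches to GGNGGNGGN, searched on both strands, in capitals.
Purb promoter: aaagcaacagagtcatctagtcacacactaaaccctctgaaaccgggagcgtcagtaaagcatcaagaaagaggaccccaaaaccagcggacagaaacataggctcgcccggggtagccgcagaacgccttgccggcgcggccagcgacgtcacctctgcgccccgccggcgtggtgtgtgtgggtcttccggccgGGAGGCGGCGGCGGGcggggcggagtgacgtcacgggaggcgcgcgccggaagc
The window held 3 overlapping matches in a run of 15 bases, and at least 1 match was found in 41.0% of 32851 promoter windows of the same length.

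Taking the step between values of a library as 1 read, the libraries held between 68424934 and 86639113 reads on genes, and each member had at least 1021 reads in every library. Tert reached 105 to 241 normalized counts in the 6 wild-type libraries and was listed at 0 in 5 of the 6 knockout libraries and at 6.31 in hippocampus library 2. The markers of cortical layers and of hippocampal fields were detected in every library of their tissue. Cortex wild-type library 2 stood apart from libraries 1 and 3, with a median absolute log2 difference from its group mates of 0.289 against 0.159 to 0.184 for the other wild-type and 0.0762 to 0.0940 for the knockout cortex libraries. Without it 21.4% of tested genes were called in cortex in place of 1.94%, and calls of named genes that depend on it are given with and without it. Library 3 had the smallest median absolute log2 difference from its group mates in each group. Summed choroid plexus markers measured 348792, 12540 and 180640 in wild-type hippocampus libraries 1, 2 and 3, and 2539, 11353 and 6993 in knockout cortex. Library 3 lay close to midway between libraries 1 and 2 in both of these groups. It also lay between them in knockout hippocampus, but not in wild-type cortex. In wild-type hippocampus libraries 1, 2 and 3, meningeal sums were 19852, 8855 and 14367, and endothelial sums were 33004, 15123 and 24361. Whether library 3 is independent of libraries 1 and 2 was not tested. If the libraries of a group are not independent, the SDs, SEs and p-values given here would be too small. The 2 tables were scaled separately, so levels are set side by side within a tissue only.

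Pura transcripts were lower in every knockout library than in any wild-type library of the same tissue, and the difference was larger in cortex. In cortex Pura measured 7382, 7666 and 7008 normalized counts in wild-type libraries 1, 2 and 3 and 4272, 3900.4 and 4100.05 in the knockout libraries. The knockout mean (4091 ± 186, SD, n = 3) was 55.6% of the wild-type mean (7352 ± 330, SD, n = 3), a log2 fold change of -0.85 ± 0.06 (SE). In hippocampus the libraries held 7129, 7458 and 7157 in wild type and 5311, 5708 and 5886 in knockout. There the knockout mean (5635 ± 294, SD, n = 3) was 77.7% of the wild-type mean (7248 ± 182, SD, n = 3), and the log2 fold change was -0.36 ± 0.05. The groups were thus separated by 2736 normalized counts in cortex and by 1243 in hippocampus, between the lowest wild-type and the highest knockout value. The fold change in hippocampus was smaller in size by 0.48 ± 0.08 on the log2 scale. Leaving out wild-type library 2 gave -0.815 for Pura in cortex, and over all 15 alternatives in cortex it lay between -0.91 and -0.81.

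Purb, the most abundant member, was lower in knockout hippocampus and overlapped between the genotypes in cortex. In hippocampus Purb measured 32519, 36554 and 34899 normalized counts in wild type and 27015, 26410 and 28963.5 in knockout. The knockout mean (27463 ± 1334, SD, n = 3) was 79.2% of that of wild type (34657 ± 2028, SD, n = 3), with a log2 fold change of -0.34 ± 0.06. In cortex the wild-type libraries held 41099.8, 32682 and 39274 and the knockout libraries 37321, 35996 and 36549.5. The lowest wild-type value was that of library 2, and the 3 knockout values lay between it and the other wild-type libraries. The log2 fold change in cortex was -0.03 ± 0.09. It was -0.13 without wild-type library 2 and turned to 0.03 without wild-type library 1. An antisense gene model, Gm11973, at 0 to 25.4 normalized counts per library, overlaps the start of Purb from 6475425 to 6475917. With the strand setting of the counting unknown, reads of the 2 genes in this stretch cannot be told apart. A microRNA model, Gm22123, lies within Purb on the same strand and held 0.90 to 1.07 normalized counts per library.

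Purg, the least abundant member, overlapped between the genotypes in both tissues. In cortex its libraries held 1193, 1342 and 1118 normalized counts in wild type and 1085, 1057 and 1175 in knockout (log2 fold change -0.14 ± 0.09). The highest of these values was again from wild-type library 2, and the fold change was -0.0649 without it. In hippocampus Purg measured 1255, 1250.08 and 1317 in wild type and 1265, 1308 and 1361 in knockout (log2 fold change 0.04 ± 0.05). Leaving out any 1 hippocampus library moved that value between 0.01 and 0.07.

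**Figure D1:**
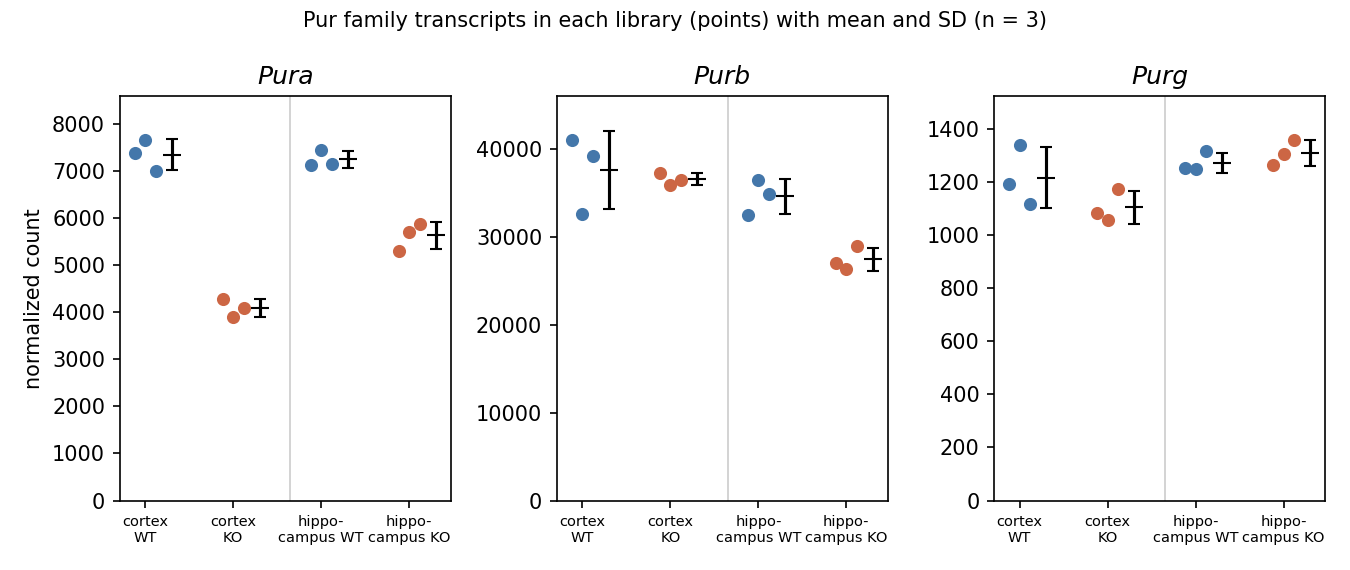
Normalized counts (vertical axes, each from 0) of Pura, Purb and Purg in the 3 libraries of each group (points; blue wild type, WT, and orange knockout, KO), with the mean and SD beside them. Pura was lower in every knockout library of both tissues, Purb in those of hippocampus, and Purg overlapped throughout.

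In all, knockout libraries lay below the wild-type libraries without overlap for 1 of 3 members in cortex, where this held for 12.2% of all tested genes, and for 2 of 3 in hippocampus, where it held for 21.5%. The members were proposed on these values, so nothing is read from those shares. In bulk tissue, fewer cells that express a gene and less RNA per cell cannot be told apart. Some markers of other cell types moved with genotype in the same libraries. Beside the counts below, 1.28% of all tested genes rose and 0.661% fell in cortex, and 14.1% rose and 15.1% fell in hippocampus. In cortex 8 of 9 striatal neuron markers rose, with a summed level of 12627 to 13874 normalized counts in wild type and of 32246 to 51441 in knockout. Choroid plexus markers, 1 of 7 of which rose, summed to 1425 to 1740 and 2539 to 11353, and meningeal markers, 1 of 7 of which fell, to 6962 to 7414 and 3901 to 6741. Endothelial markers, 2 of 5 of which rose, summed to 14165 to 14893 and 18037 to 19150, and markers of inhibitory neurons, 2 of 6 of which rose, to 56239 to 60423 and 67034 to 67780. Of the other lists in cortex, 1 of 6 microglia markers rose, 1 of 6 astrocyte markers fell, 1 of 5 cortical layer markers rose and 1 fell, 1 of 6 hippocampal field markers fell, and none of 6 markers each of excitatory neurons and oligodendrocytes was called. Summed levels were still higher in every knockout library for excitatory neurons (503472 to 519944 in wild type and 563312 to 571824 in knockout) and oligodendrocytes (313721 to 322849 and 362682 to 392167). The same held for cortical layers (36142 to 42841 and 48534 to 49268) and microglia (14666 to 16437 and 16629 to 17114). Astrocyte and hippocampal field sums overlapped between the genotypes. No marker of these lists was at 0 in any library. In knockout cortex libraries 1, 2 and 3 Pura measured 4272, 3900 and 4100. Striatal sums there were 32246, 51441 and 41083 and choroid plexus sums 2539, 11353 and 6993, both in the opposite order to Pura. Meningeal sums were 6741, 3901 and 5293, in the same order as Pura. The part of these cells in the Pura result was not tested. In hippocampus 6 of 6 microglia markers rose (summed level 16140 to 19590 in wild type and 23139 to 23782 in knockout), as did 4 of 6 markers each of excitatory neurons, inhibitory neurons and oligodendrocytes. Astrocyte markers, 3 of 6 of which rose and 1 of which fell, summed to 306740 to 372365 in wild type and 288764 to 303883 in knockout. Of the other lists there, 2 of 6 hippocampal field markers rose and 2 fell, 2 of 9 striatal markers rose and 1 fell, 1 of 5 cortical layer markers rose, and none of 7 meningeal or 5 endothelial markers was called. Choroid plexus markers, none of 7 called, summed to 12540 to 348792 in wild type and 9059 to 18215 in knockout hippocampus, and wild-type library 2, with the lowest wild-type sum, held the highest Pura and Purb values. The part of these cell types in the Pura and Purb values was not tested either.

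Set per kb of exon, Purb was the most abundant of the family in each of the 12 libraries, followed by Pura and then Purg. Wild-type cortex held 4530 ± 532 normalized counts per kb of Purb, 1234 ± 55.4 of Pura and 617 ± 57.8 of Purg (SD, n = 3). In wild-type hippocampus these levels were 4166 ± 244, 1217 ± 30.6 and 645 ± 18.9 per kb. The knockout values were 4402 ± 80.0, 687 ± 31.2 and 560 ± 31.3 per kb in cortex and 3301 ± 160, 946 ± 49.4 and 664 ± 24.2 in hippocampus. Neighbours in this order did not overlap in any group. Pura and Purg came closest in knockout cortex, where the lowest Pura value was 655 and the highest Purg value 595 per kb.

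The ratio between members within a library does not depend on how that library was scaled. In cortex the ratio of Purb to Pura per kb was 3.99, 3.05 and 4.01 in the wild-type libraries and 6.26, 6.61 and 6.38 in the knockout libraries. In hippocampus it was 3.27, 3.51 and 3.49 in wild type and 3.64, 3.31 and 3.52 in knockout. The knockout ratios thus lay above all wild-type ratios in cortex and overlapped with them in hippocampus, where Pura and Purb were lower by similar factors. The ratio of Purg to Pura did not overlap in either tissue, with means of 0.499 ± 0.0255 and 0.816 ± 0.0493 in wild-type and knockout cortex and of 0.531 ± 0.0248 and 0.702 ± 0.0145 in hippocampus (SD, n = 3). Pura made up 19.4% ± 2.08 of the summed level of the family per kb in wild-type cortex and 12.2% ± 0.30 in knockout cortex, against 20.2% ± 0.562 and 19.3% ± 0.672 in hippocampus (SD, n = 3). The summed level per kb was 6381 ± 450 and 5649 ± 120 in wild-type and knockout cortex and 6028 ± 271 and 4911 ± 214 in hippocampus.

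**Figure D2:**
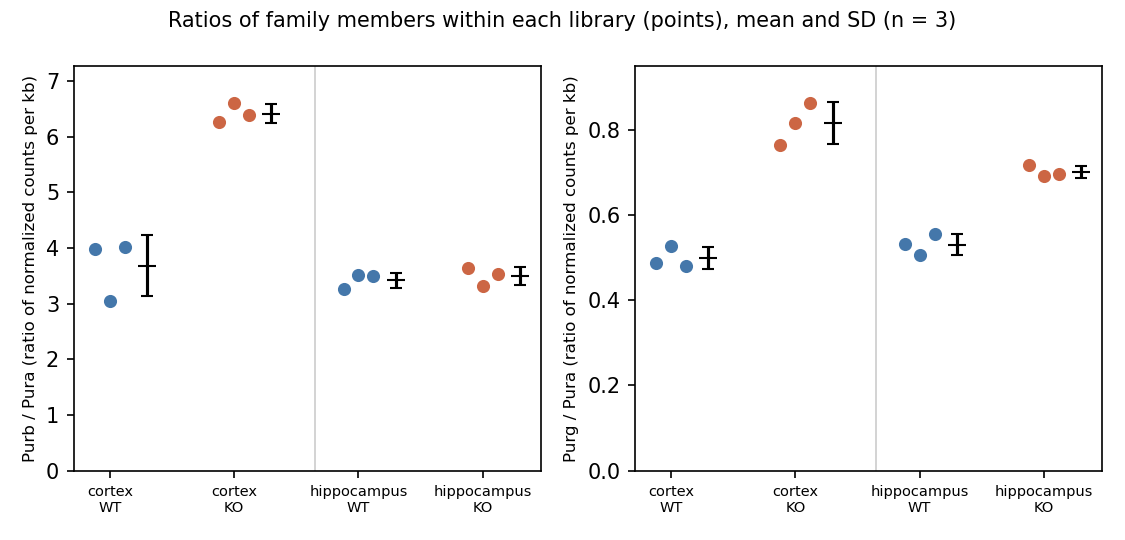
Ratio of Purb to Pura (left) and of Purg to Pura (right), each in normalized counts per kb of exon (vertical axes from 0), in the 3 libraries of each group (points; blue wild type, WT, and orange knockout, KO) with mean and SD. The Purb to Pura ratio was 3.05 to 4.01 in wild-type cortex and 6.26 to 6.61 in knockout cortex, and overlapped in hippocampus.

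Fold changes in hippocampus varied with exonic length, so each member is set beside protein-coding genes of its own length. Purb falls among genes with 8 to 12 kb of exon, of which 1842 were tested. Their median log2 fold change in hippocampus was -0.16, with quartiles of -0.44 and 0.04, and 599 of them (32.5%) lay lower than Purb. Of these genes 41.0% were called lower, at an adjusted p below 0.05 from limma, against 15.1% of all tested genes in that tissue and 0.661% in cortex. Calls of higher genes made up 14.1% and 1.28%. With the trend along exonic length removed from each library, the value of Purb in hippocampus was -0.20 in place of -0.34. Pura falls among genes with 4 to 8 kb of exon. Their median was 0.04 in hippocampus, where 755 of 5937 (12.7%) lay lower than Pura, and 0.06 in cortex, where 72 of 5907 (1.22%) did. With the length trend removed Pura measured -0.36 in hippocampus and -0.91 in cortex. Purg falls among genes with up to 2 kb of exon, whose medians were -0.12 in cortex and 0.06 in hippocampus, and 45.1% and 45.9% of them lay lower than Purg.

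The coding sequence of Pura and of Purb lies in 1 exon, and other genes with this feature are set beside them. All 1143 such genes tested in cortex had a median log2 fold change of -0.02, against -0.01 for all tested genes, and all 1188 in hippocampus had a median of 0.08, against 0.02. Knockout libraries lay below the wild-type libraries without overlap for 15.3% of them in cortex and 13.8% in hippocampus. Of all tested genes this held for 12.2% and 21.5%. With 4 to 12 kb of exon, 297 such genes had a median of 0.07 in cortex and 301 had a median of 0.07 in hippocampus. In cortex 2 of them (0.673%) fell and 10 rose, and in hippocampus 37 (12.3%) fell and 47 rose. Of all tested genes 0.661% fell and 1.28% rose in cortex, and 15.1% fell and 14.1% rose in hippocampus.

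**Figure D3:**
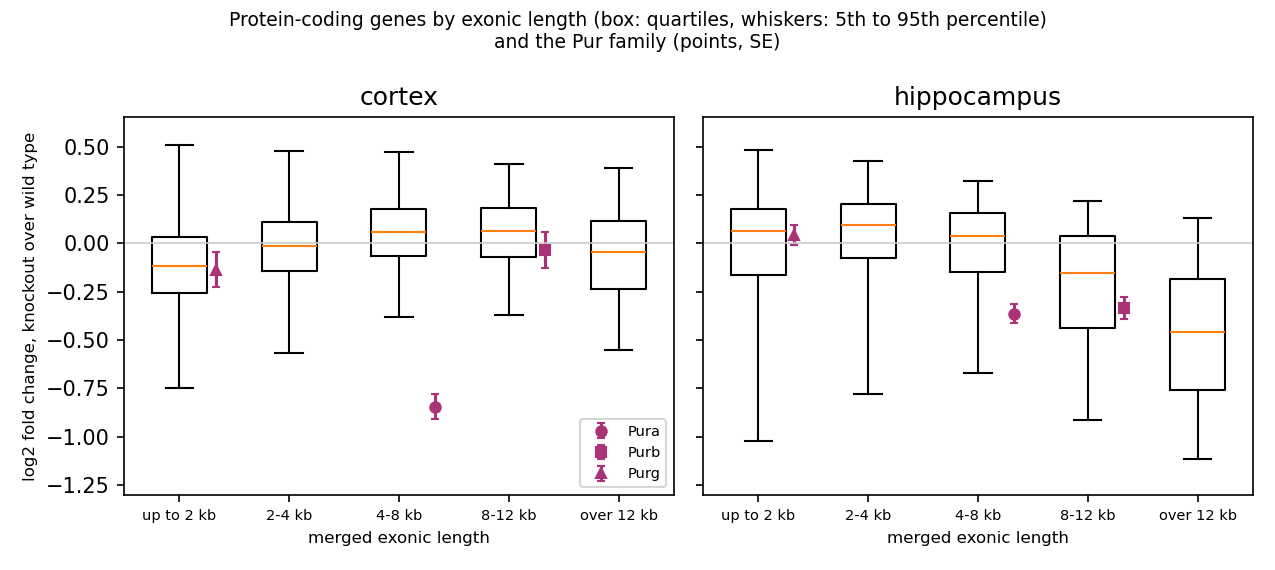
Log2 fold change, knockout over wild type (vertical axis), of all tested protein-coding genes in 5 classes of merged exonic length (boxes show quartiles, whiskers the 5th and 95th percentiles), with Pura, Purb and Purg beside their class (points with SE). Pura lay at -0.85 in cortex, below the whisker of its class, and Purb and Purg lay within the box of theirs in both tissues.

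The comparison with length classes was also made library by library. In cortex Purb deviated from its mean over the 6 libraries by 0.15, -0.18 and 0.08 on the log2 scale in wild-type libraries 1, 2 and 3, and genes with 8 to 12 kb of exon had median deviations of 0.07, -0.23 and 0.05. Purg deviated by 0.21 in wild-type library 2, where genes with up to 2 kb of exon had a median of 0.29. Pura deviated by 0.43, 0.48 and 0.35 in the wild-type and by -0.36, -0.49 and -0.42 in the knockout cortex libraries, while the median of its class stayed between -0.11 and 0.04. Purb and Purg thus followed their length classes in cortex wild-type library 2, and Pura did not.

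**Figure D4:**
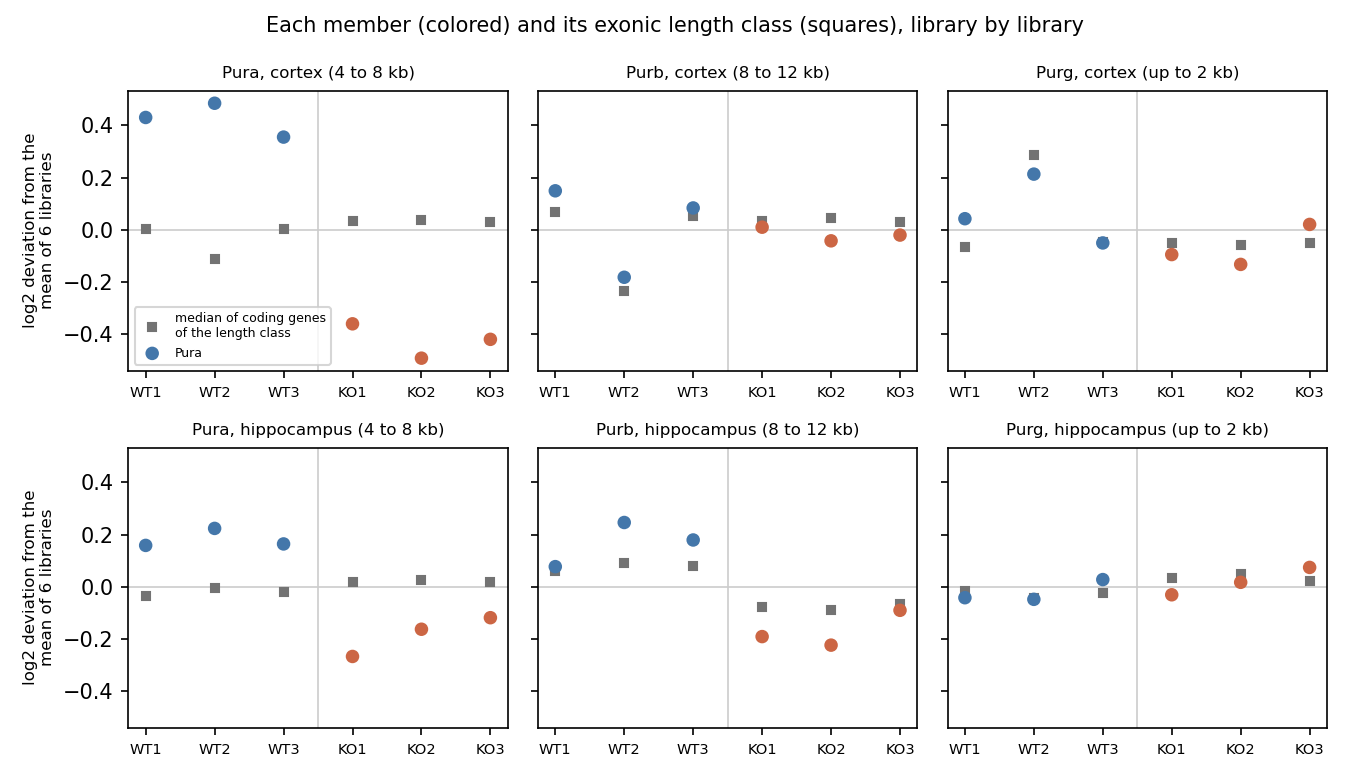
Log2 deviation of each member from its mean over the 6 libraries of a tissue (vertical axis; blue wild type, WT, and orange knockout, KO), with the median deviation of protein-coding genes of the same exonic length class (grey squares). Pura departed from its class in all 12 libraries, and Purb and Purg lay close to theirs in cortex wild-type library 2. In hippocampus Purb also departed from its class, at 0.25 against 0.09 in wild-type library 2 and -0.22 against -0.09 in knockout library 2.

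The nearest protein-coding gene on each side of a member makes 6 neighbours, of which 5930422O12Rik, beside Purg, was not analysed here. Of the other 5, Igip and Wrn were called with all libraries, both in hippocampus and in opposite directions. Of all tested genes 29.2% were called in hippocampus and 1.94% in cortex. Igip, which encodes a protein that induces immunoglobulin A and starts 6144 bases beyond Pura on the same strand, rose in hippocampus (log2 0.25 ± 0.05, limma adjusted p = 0.00862) and measured 6907 ± 137 and 7241 ± 81.9 normalized counts in wild-type and knockout cortex (0.07 ± 0.05, adjusted p = 0.526; SD, n = 3). Nrg2, a neuregulin on the other side of Pura, was not called in cortex with all libraries (0.35 ± 0.12, limma adjusted p = 0.204), rose there without wild-type library 2 (0.21 ± 0.06, adjusted p = 0.0395), and was not called in hippocampus (-0.00 ± 0.08, adjusted p = 0.976). Neither H2afv, a histone variant, nor the myosin Myo1g, the neighbours of Purb, was called in either tissue (limma adjusted p between 0.232 and 0.895). Wrn, whose annotated start lies 798 bases from that of Purg, fell in hippocampus from 976 ± 75.6 to 729 ± 53.1 normalized counts (SD, n = 3; log2 -0.42 ± 0.08, limma adjusted p = 0.00833). It has 7597 bases of exon, and with the length trend removed it measured -0.33. In cortex Wrn measured -0.01 ± 0.10 (adjusted p = 0.970).

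Genes of the neuronal transport granule, in which Pur-alpha and Pur-beta are found, changed in both directions in hippocampus. Of 24 listed genes 23 were tested, and in hippocampus 7 rose and 4 fell, or 47.8% called where 29.2% of all tested genes were called. The median log2 fold change was 0.03, against 0.02 for all genes. Pabpc1, the cytoplasmic poly(A) binding protein, rose by 0.28 ± 0.05 and the RNA helicase Ddx1 by 0.28 ± 0.05. Fxr2, a relative of the fragile X protein, the double-strand RNA binding proteins Stau1 and Stau2, the helicase Ddx3x and the paraspeckle protein Nono also rose, by 0.15 to 0.20. Sfpq, a splicing factor that pairs with Nono, fell from 15670 ± 866 to 9649 ± 458 normalized counts (SD, n = 3; -0.70 ± 0.06, limma adjusted p = 0.000135), and in cortex measured -0.53 ± 0.17 (adjusted p = 0.177). The motor proteins Myo5a (-0.63 ± 0.06), Kif5b (-0.37 ± 0.06) and Kif5c (-0.30 ± 0.07) fell as well. With the length trend removed Myo5a, with 14803 bases of exon, measured -0.22, Kif5b -0.26 and Sfpq -0.74. In cortex 0 of 23 passed the limma threshold, where 1.94% of all tested genes did, with 7 at an unadjusted p under 0.05 and a median of 0.10. Without cortex wild-type library 2, where 21.4% of all tested genes were called, the count was 10. Among these, without that library, Sfpq fell (-0.75 ± 0.03, adjusted p = 6.52e-06), as did Myo5a (-0.35), while Ddx3x (0.22), Ddx1 (0.25), Kif5c (0.16), Pabpc1 (0.16) and Stau2 (0.14) rose. In hippocampus the count of 11 fell to 5 without wild-type library 3 and to 6 without knockout library 2, and the call of Ddx3x was lost without either of them, wild-type library 1 or knockout library 3 (0.14 to 0.21). Calls among all tested genes fell from 6513 to 3656 and 4069 without those first 2 libraries. Over all fits that left out 1 library the count lay between 5 and 13.

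Other proteins that bind single-stranded nucleic acids formed a list of 26 genes, all tested. In hippocampus 10 rose and 3 fell, or 50% called, where 29.2% of all tested genes were called, 14.1% higher and 15.1% lower (median 0.10). In cortex 0 passed the limma threshold, where 1.94% of all genes did, with 8 at an unadjusted p under 0.05 (median -0.02). Hnrnpk, a KH-domain protein of the nucleus, rose in hippocampus from 19676 ± 695 to 24860 ± 871 normalized counts (SD, n = 3; log2 0.34 ± 0.04, limma adjusted p = 0.00155). The poly(C) binding genes Pcbp1, Pcbp2, Pcbp3 and Pcbp4 rose by 0.15 to 0.20, Cnbp by 0.20 and Fubp3 by 0.27. Fubp1, which binds the far upstream element of Myc, fell by 0.57 ± 0.05 on the log2 scale (adjusted p = 0.000276); it has 15500 bases of exon, and with the length trend removed it measured -0.13 and was no longer called (adjusted p = 0.0523). Ybx1, a cold-shock protein that acts with Pur-alpha, was not called (0.14 ± 0.05 in hippocampus, adjusted p = 0.0747, and -0.00 ± 0.07 in cortex, adjusted p = 0.980). The hippocampus count of 13 fell to 5 without wild-type library 3, to 5 without knockout library 2 and to 8 without knockout library 1. Calls among all tested genes fell in these fits from 6513 to 3656, 4069 and 4759. Over all fits that left out 1 library the count lay between 5 and 18. The cortex count was 8, with 21.4% of all tested genes called, without wild-type library 2. Among the genes called without that library, Rbms1 (0.44), Fubp3 (0.31), Hnrnpk (0.17) and Pcbp3 (0.15) rose in cortex, and Fubp1 (-0.46), Ssbp2 (-0.21) and Ssbp3 (-0.15) fell.

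Reported targets of Pur proteins and cargo of the transport granule moved in both directions. Of 15 listed genes 4 rose and 3 fell in hippocampus, or 46.7% called against 29.2% of all tested genes (median 0.11), and 1 rose and 1 fell in cortex, or 13.3% called against 1.94% (median 0.01). Map1b, a microtubule-associated protein whose messenger RNA is carried in dendrites, fell in hippocampus from 119286 ± 13636 to 73304 ± 2261 normalized counts (SD, n = 3; -0.70 ± 0.08, limma adjusted p = 0.000915). It has 15846 bases of exon and measured -0.25 with the length trend removed. App, the amyloid precursor, whose promoter Pur-alpha has been reported to repress, rose by 0.33 in hippocampus and measured 0.35 in cortex (limma adjusted p = 0.00328 and 0.0601); it has 12996 bases of exon, and with the length trend removed the hippocampus value was 0.68. Sqstm1, an autophagy receptor, rose by 0.20 ± 0.04 and Lsm14a, a component of processing bodies, by 0.11 ± 0.03, while the processing body helicase Ddx6 fell by 0.26 ± 0.04 on the log2 scale. Also called in hippocampus were Myc, which rose (0.47 ± 0.12, limma adjusted p = 0.0223), and Myh6, which overlaps other gene models and fell (-0.42 ± 0.11, adjusted p = 0.0240). Sqstm1 was no longer called without wild-type library 3 (0.19, adjusted p = 0.0544). The cortex calls were E2f1, a cell cycle transcription factor (0.38 ± 0.07, adjusted p = 0.0488), which rose, and Myh7, a myosin heavy chain that overlaps other gene models (-0.72 ± 0.11, adjusted p = 0.0289), which fell. Both were lost when any 1 cortex library other than wild-type library 2 was left out, with E2f1 between 0.35 and 0.41 and Myh7 between -0.78 and -0.69. Without wild-type library 2, where 21.4% of all tested genes were called, the count was 8. The others called in cortex without that library were App (0.29, adjusted p = 1.91e-05), Mbp (0.23), Camk2a (0.15) and Sqstm1 (0.14), which rose, and Map1b (-0.49) and Myh6 (-0.64), which fell. With all libraries Mbp, which encodes myelin basic protein and whose promoter Pur-alpha binds, was not called (0.21 ± 0.07 in each tissue, adjusted p = 0.154 in cortex and 0.0504 in hippocampus), nor were the dendritic transcripts Camk2a, Arc and Bc1 in either tissue (limma adjusted p between 0.109 and 0.516). The hippocampus count of 7 fell to 3 without wild-type library 3 and to 4 without knockout library 2 or knockout library 3. Calls among all tested genes fell in these fits from 6513 to 3656, 4069 and 4632. Over all fits that left out 1 library the count lay between 3 and 10.

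The knockout effect differed between the tissues for 2 of 64 tested genes of these lists (3.12%), against 3.02% of all genes tested for it. These were the kinesin Kif5c (0.28 ± 0.11 in cortex and -0.30 ± 0.07 in hippocampus, limma interaction adjusted p = 0.0468) and Rbms1, which encodes a protein that binds single-stranded DNA and RNA (0.39 ± 0.07 and -0.41 ± 0.13, adjusted p = 0.0305). With wild-type library 2 of cortex left out the differences were -0.46 for Kif5c and -0.85 for Rbms1 (adjusted p = 0.008 and 0.0086), and 7 of 64 list genes were called, against 9.24% of all genes. Both calls were lost when any 1 knockout library of either tissue or hippocampus wild-type library 3 was left out, and that of Kif5c also without hippocampus wild-type library 2 (adjusted p 0.0655 to 0.122).

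**Figure D5:**
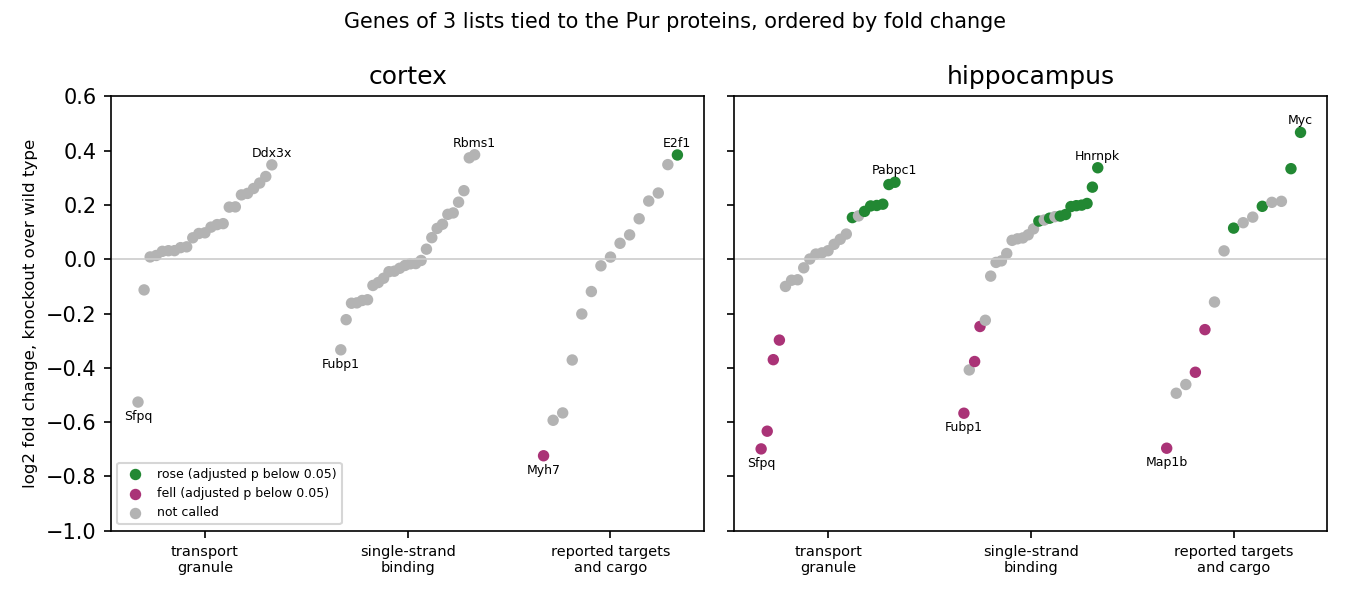
Log2 fold change, knockout over wild type (vertical axis), of the tested genes of 3 lists tied to the Pur proteins, ordered by fold change within each list (green rose, purple fell, grey not called; limma adjusted p below 0.05). In hippocampus 7, 10 and 4 genes of the lists rose and 4, 3 and 3 fell; in cortex E2f1 rose and Myh7 fell.

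Across the 12 libraries, each centred on the mean of its tissue, few named genes followed Pura closely and many followed Purb. These correlations are over libraries of both genotypes and so hold the difference between genotypes, and they are given as descriptions. Among 13951 genes that averaged 50 or more normalized counts in both tables, the 4 with the highest Pearson r with Pura were Atoh8, a transcription factor (0.96), Calhm2, a calcium homeostasis modulator that overlaps Pdcd11 (0.95), Slc26a4, the anion transporter pendrin (0.95), and Rn7sk, the 7SK RNA that holds the elongation factor P-TEFb inactive (0.94). Rn7sk measured -1.09 in cortex and -0.45 in hippocampus as a log2 fold change. An r above 0.9 with Pura was found for 44 genes, with Purb for 842 and with Purg for 10. In the opposite direction, an r below -0.9 was found for 197 genes with Pura, 88 with Purb and 4 with Purg. The genes above 0.9 with Purb had a median exonic length of 10512 bases, against 4546 for all genes compared, and 77.3% had more than 8 kb of exon against 18.8%. Those above 0.9 with Pura had a median of 4320.5 bases. The closest to Purb were Zfp638 (0.99), Akap5 (0.98), Lmbrd2 (0.98) and Pcdh17 (0.98), and the closest to Purg were Rps19-ps2 (0.95), Rpl35a-ps5 (0.94), Atp5s (0.94) and Rps19-ps1 (0.93), of which the pseudogenes share reads with near-identical copies and are uncertain. Between the members the r was 0.39 for Pura and Purb, 0.52 for Pura and Purg and -0.31 for Purb and Purg.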

How the data were processed

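Per the submitters' processing notes, STAR, HTSeq, DESeq2 and the build GRCm38 were used; versions, annotation, strandedness and settings were not given in the sources used here. Deposited values are a signal, normalized counts per gene, in 1 table per tissue. Within every library 100% of values were within 0.001 of a whole multiple of 1 step. Read counts divided by 1 size factor would have this form. For cortex wild-type libraries 1 and 2 the step is close to 1 (0.991 for library 1), and a separate check did not recover whole reads. Of 55487 gene IDs, 55227 matched GENCODE M21 (GRCm38), the source of symbols, coordinates and merged exonic lengths; 260 did not. Columns of other samples numbered 0.

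The genotypes of a tissue were compared in limma 3.58.1 (R 4.3.3; trended prior variance) on log2(normalized count + 1), keeping genes that averaged 10 or more (21945 in cortex, 22337 in hippocampus). The pseudocount of 1 shrinks fold changes of weakly expressed genes. Calls were made at an adjusted p (Benjamini-Hochberg, all tested genes of a tissue) below 0.05. The difference between tissues is the interaction term of 1 fit over the 12 libraries, taken as independent, which was not tested. edgeR 4.0.16 was run on recovered reads of hippocampus as an alternative. The fits were tested on simulated data.

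The members and the gene lists were chosen with earlier results of these data known. Named were the members, Tert, the 4 genes with the smallest p per list and tissue, the nearest protein-coding neighbours, and the 4 genes with the highest r with each member; predicted genes were passed over; other list genes were named after their values were seen. A promoter window is shown for 1 of 3 members, Purb. Windows on chromosome 18, which carries Pura, were left out when members were matched. Coding sequences were aligned with Biopython 1.88.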

Additional observations from a re-analysis of the deposited data

Results flagged for a closer look

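The knockout effect of 2 of 64 tested list genes differed between the tissues by the limma interaction test (3.12%, against 3.02% of 21282 genes tested for it). Rbms1, which encodes an RNA-binding protein that also binds single-stranded DNA, measured 0.39 ± 0.07 in cortex and -0.41 ± 0.13 in hippocampus, a difference of -0.79 (limma interaction adjusted p = 0.0305). Its values were higher in 3 of 3 knockout libraries of cortex and lower in 3 of 3 of hippocampus. Neither effect was called within its tissue with all libraries (limma adjusted p = 0.0509 and 0.0549). In hippocampus Rbms1 held 1824, 1213 and 1591 normalized counts in wild-type libraries 1, 2 and 3, and 1127 to 1172 in knockout. Summed choroid plexus markers (348792, 12540 and 180640) had the same order in those wild-type libraries. Their part in the Rbms1 values was not tested. Rbms1 was called in cortex with a pseudocount of 10 (0.0486), a mean of at least 50 (0.044) and without wild-type library 2 (0.000253), and in hippocampus with a mean of at least 50 (0.0492), with the replicate block (0.0474) and without wild-type library 2 (0.00108). Kif5c, a kinesin heavy chain of neurons that overlaps Gm13525, measured 0.28 ± 0.11 in cortex (limma adjusted p = 0.226) and fell in hippocampus (-0.30 ± 0.07, adjusted p = 0.0190), a difference of -0.58 (adjusted p = 0.0468). Kif5c held 59669 normalized counts in cortex wild-type library 2 and 75777 and 78200.5 in libraries 1 and 3. Over the 12 fits that left out 1 library, chosen after seeing the data, the difference lay between -0.652 and -0.456 for Kif5c and between -0.957 and -0.662 for Rbms1, with adjusted p of 0.008 to 0.122 and 0.00176 to 0.0914.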

How the results depend on the processing

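The log2 fold changes of Pura in both tissues, and of Purg and of Purb in cortex, moved by less than the spread between libraries under every alternative run (15 in cortex, 16 in hippocampus), with ranges of -0.91 to -0.81 and -0.40 to -0.32 for Pura, -0.13 to 0.03 for Purb in cortex, and -0.20 to -0.06 and 0.01 to 0.07 for Purg. Purb in hippocampus moved to -0.20 with the length trend removed and lay between -0.38 and -0.30 when 1 library was left out. The 426 calls in cortex became 233 with no filter, 86 with a prior variance without a trend, 1285 with the length trend removed and 15 to 4693 when 1 library was left out, the latter without wild-type library 2. The 6513 calls in hippocampus became 3656 to 7833 when 1 library was left out; the cause was not tested. edgeR on recovered reads called 6682 genes in hippocampus, 6245 of them in common. It was not run in cortex, where the separate check did not recover whole reads of wild-type libraries 1 and 2. Same-numbered libraries shared only a number (correlations of their deviations from -0.0649 to 0.0915). With the replicate block the calls in cortex were 45 and in hippocampus 6015, the fold changes of the members were unchanged, and the calls of Myh7 and E2f1 were lost. Quantile normalization raised the median of all genes in hippocampus from 0.02 to 0.09 and the share of rises among calls from 48.2% to 60.7%. Genes that changed sign were, with quantile normalization, Sqstm1 (-0.0351) and Wrn (0.00952) in cortex and Nrg2 (0.0532) and Myo1g (0.182) in hippocampus, and, with the length trend removed, Cnbp in cortex (0.000607) and E2f1 (-0.0289) and Myo1g (0.00233) in hippocampus. With 1 library left out, Myo5a (-0.352 to 0.0095), Wrn (-0.106 to 0.0479), Cnbp (-0.0685 to 0.0798) and Myo1g (-0.464 to 0.0446) changed sign in cortex, and Myh7 (-0.359 to 0.0182), Nrg2 (-0.0656 to 0.0576), Myo1g (-0.32 to 0.189) and E2f1 (-0.0337 to 0.0763) in hippocampus. None of these genes was called in that tissue with all libraries, nor under the alternatives that turned its sign. Of the hippocampus list counts of 11, 13 and 7, a prior variance without a trend left 6, 6 and 5, and the removed length trend gave 15, 7 and 9. Under these settings 4590 and 5713 of all tested genes were called, in place of 6513.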
